A study of Saccharomyces cerevisiae with 3 samples.

Results

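The 7 genes described here encode small chaperones, stress proteins of the membrane and sorting factors for misfolded protein in budding yeast. They were picked by name, as the rows with the systematic identifiers of HSP12, HSP30, HSP26, HSP42, HSP31, BTN2 and CUR1, out of 6212 identifiers listed on 3 spotted arrays with 2 colours. All 7 had a ratio on all 3 arrays, as had 4258 genes of the table. The set was chosen by name with the log2 ratios of this comparison already known, so its ratios are given as a description and no test of them is offered.

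Small heat shock proteins hold unfolding proteins in a soluble or loosely clustered form until larger chaperones of the Hsp70 and Hsp100 families can refold them. In yeast Hsp26 does so as an oligomer that opens on heating, and Hsp42 gathers misfolded protein into deposits in the cytosol. Btn2 and its relative Cur1 steer misfolded protein to deposits at other sites, among them the nucleus, and so work beside Hsp42. Most genes of this kind are driven by the heat shock factor Hsf1, by the general stress factors Msn2 and Msn4, or by both.

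The arrays set a mutant labelled tetO:HAL3 vhs3::URA3 against a wild type strain, both in the JA100 genetic background. In the mutant the tetO promoter in front of HAL3 is one that doxycycline represses, and VHS3 carries the URA3 marker. Hal3 and Vhs3 inhibit the protein phosphatase Ppz1 and take part in coenzyme A synthesis. Doxycycline (100 µg/ml) was given to wild type and mutant alike over 15 h of growth in synthetic complete medium, at 28 °C, so the drug is common to both and the alleles are the difference that the labels give. The comparison asks which transcripts differ when HAL3 is shut off in a strain with a disrupted VHS3.

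Of the 3 arrays, 2 were made from biological replicate 1 with the dyes exchanged (a dye-swap pair), and their mean was taken as 1 replicate. The third array is labelled replicate 2 and had the mutant in Cy5. Ratios are read as log2 of mutant over wild type, after each array was centred on its median, and the number of arrays limits their precision. No label states this direction. The sample titles write the strain in Cy3 before the strain in Cy5 on every array, and do not say which is the numerator. VHS3 was at −2.06 (mutant in Cy5), −2.50 (mutant in Cy3) and 0.09 (array labelled replicate 2), and HAL3 was at −1.33, −1.29 and −0.14. URA3, the marker, was at −1.40, −0.82 and −0.33. URA3 was thus below 0 on every array, although it is the marker that the mutant carries. VHS3 and HAL3 went against the label on the third array, so the 7 genes are given array by array. Means, distances and counts over both replicates rest in part on that array, whose ratios correlated across the 4258 genes with those of the other array with the mutant in Cy5 at 0.178, against 0.508 within the dye-swap pair. The arrays also differed in width, with a median absolute deviation over all genes of 0.364 and 0.390 for replicate 1 but 0.161 for the array labelled replicate 2. A ratio from a whole culture cannot tell fewer expressing cells from less RNA per cell.

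All 7 genes had ratios below 0 on all 3 arrays, against 15.9% of the genes measured on all 3. The median over the 7 genes was −0.94 and −0.98 for both dye orientations of replicate 1, against −0.67 for the array labelled replicate 2, where the median over all genes is 0 by centring. The median of the genes' mean ratios over both replicates was −1.10 for the 7 genes, beside 0.01 for the 4598 genes measured in both. The call over all genes, limma with a Benjamini-Hochberg adjusted p under 0.05, took 0% of these 4598 genes and 0 of the 7. In the same limma fit 222 of the 4598 genes, 5 of the 7 among them, were at an unadjusted p under 0.05. Of the 222 genes 158 were lower and 64 higher. A limit of 0.05 lets through about as many of 4598 genes when none differ, so the count alone does not tell whether genes differ. Counted by size instead, 0 of the 7 genes were at least 2-fold lower in both replicates, against 0.13% of all genes. Since the same ratios guided the choice of the genes, nothing is read from these counts.

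**Figure D1:**
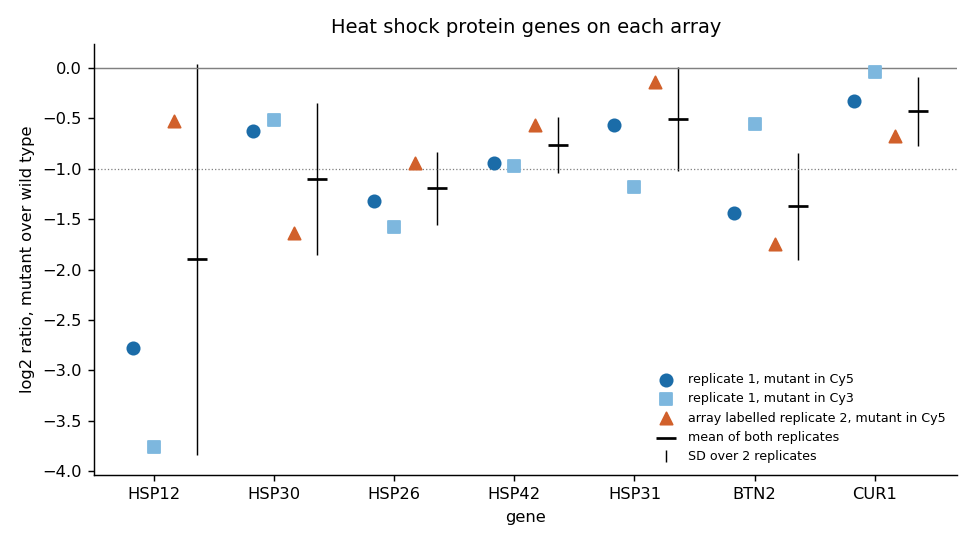
Log2 ratio of mutant over wild type (vertical axis) of each of the 7 genes (horizontal axis) on the 3 arrays, with the mean of both replicates and its SD (n = 2) beside the points. The dotted line marks a 2-fold lower ratio. Every point lies below 0, HSP12 has the lowest values of replicate 1 (−2.78 and −3.76), and BTN2 and HSP30 have the lowest on the array labelled replicate 2 (−1.75 and −1.63).

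Hsp12 and Hsp30 are the stress proteins of the membrane. HSP12 (YFL014W, chromosome VI) encodes a small protein that is unfolded in solution and folds on membranes, and it is a textbook target of Msn2 and Msn4. It was at −2.78 with the mutant in Cy5, −3.76 with the mutant in Cy3 and −0.52 on the array labelled replicate 2. Before centring these are linear ratios of 0.148, 0.074 and 0.718, so the first replicate had far lower values than the second. Averaged over both dye orientations HSP12 was 9.66-fold lower in the mutant, the fifth lowest of 4598 genes, whereas on the array labelled replicate 2 it was 1.44-fold lower and 7.003% of the genes lay below it. Its mean was −1.90 ± 1.94 (SD, n = 2), an SD as large as the mean. The gap of 2.75 between replicates was wider than that of 99.7% of all genes, and the gap of 0.98 between the dyes was wider than that of 87.2%.

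HSP30 (YCR021C, chromosome III) encodes a protein of the plasma membrane that holds back the proton pump Pma1 under stress. Its ratios were −0.62, −0.52 and −1.63 in the same order of arrays, from linear ratios of 0.659, 0.703 and 0.333. Here the third array had the lowest value and the dye-swap pair differed by only 0.11, the reverse of HSP12. HSP30 was 1.48-fold lower in replicate 1, where 11.005% of the genes lay below it, against 3.10-fold on the array labelled replicate 2, where it ranked 11 from the lowest. The mean was −1.10 ± 0.75 (SD, n = 2). In units of each array's median absolute deviation HSP30 stood at −1.72, −1.32 and −10.1, against −7.64, −9.65 and −3.26 for HSP12, so both genes stood in the same contrast in these units.

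The small heat shock chaperones Hsp26 and Hsp42 share an alpha-crystallin domain. HSP26 (YBR072W, chromosome II) was at −1.32, −1.57 and −0.94, which is 2.73-fold lower in the first replicate against 1.92-fold on the array labelled replicate 2. In both replicates it was among the lowest genes, with 1.54% and 2.31% of all genes below it. HSP42 (YDR171W, chromosome IV) was at −0.94, −0.98 and −0.57, or 1.95-fold and 1.48-fold lower, with 4.26% and 6.22% of all genes below it. The means were −1.19 ± 0.36 for HSP26 and −0.76 ± 0.28 for HSP42 (SD, n = 2). HSP26 was below HSP42 on all 3 arrays, by 0.38, 0.60 and 0.37. For HSP42 the dyes differed by 0.03, a gap wider than that of only 3.70% of all genes, though 1 such difference does not measure precision.

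HSP31 (YDR533C, chromosome IV) encodes a protein of the DJ-1 family that acts as a chaperone and breaks down methylglyoxal. It was at −0.56, −1.18 and −0.14, with linear ratios of 0.689, 0.444 and 0.938. It was thus close to 0 on the array labelled replicate 2, where 28.3% of the genes lay below it, while in replicate 1 only 5.50% did. The mean was −0.50 ± 0.52 (SD, n = 2), and the difference of 0.62 between the dyes was wider than that of 63.2% of all genes.

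BTN2 (YGR142W, chromosome VII) and CUR1 (YPR158W, chromosome XVI) are relatives that encode the sorting factors. BTN2 was at −1.44, −0.55 and −1.75, with linear ratios of 0.374, 0.686 and 0.308. Both arrays with the mutant in Cy5 gave low values and the swapped array a higher one, a dye gap of 0.89 that was wider than that of 83.3% of all genes. BTN2 was 1.99-fold lower in the first replicate against 3.35-fold on the array labelled replicate 2, where it ranked 8 from the lowest, and its mean was −1.37 ± 0.53 (SD, n = 2).

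CUR1 was at −0.33, −0.04 and −0.67, which is 1.14-fold lower in the first replicate against 1.59-fold on the array labelled replicate 2. In replicate 1 it lay well inside the bulk of genes, with 30.5% below it, and on the array labelled replicate 2 4.70% were below it. The mean of −0.43 ± 0.34 (SD, n = 2) was the closest to 0 of the set. BTN2 was below CUR1 on all 3 arrays, by 1.11, 0.51 and 1.08.

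The replicates ordered the genes differently. HSP12, HSP26, HSP42 and HSP31 had lower log2 ratios in replicate 1, as had 2175 of all 4598 genes. HSP30, BTN2 and CUR1 had lower ratios on the array labelled replicate 2. For HSP26 and HSP42 the side depended on the unit. In units of each array's median absolute deviation HSP26 stood at −3.64, −4.03 and −5.84. In the same units HSP42 stood at −2.59, −2.50 and −3.52, so both were lowest on the array labelled replicate 2. At a 2-fold limit replicate 1 held HSP12 and HSP26 (3.81% of all genes) with BTN2 and HSP42 just short of it at −0.996 and −0.96. On the array labelled replicate 2 the same limit held BTN2 and HSP30 (1.98% of all genes), with HSP26 just short at −0.94. Over both replicates all 7 genes were below 0, against 24.6% of all genes. The median gap between replicates was 0.73 for the 7 genes and 0.34 for all genes, while the median gap between dyes was 0.29 and 0.47.

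By mean ratio the order from the lowest was HSP12, BTN2, HSP26, HSP30, HSP42, HSP31 and CUR1. Each of the 6 steps between neighbours, 0.08 to 0.53, was smaller than the larger of the SDs of the genes it separates. Those SDs are of single genes, whereas neighbours were measured on the same arrays. The spread of their difference was not computed, so the SDs do not settle whether neighbours differ. None of these 6 neighbouring pairs kept the same order on all 3 arrays. In replicate 1 alone the order was HSP12, HSP26, BTN2, HSP42, HSP31, HSP30 and CUR1. Of 21 pairs of genes 16 kept the same order on both arrays of replicate 1 and 7 on all 3 arrays. In these 7 pairs HSP26 was below HSP42, HSP31 and CUR1, BTN2 was below HSP30 and CUR1, HSP30 was below CUR1, and HSP12 was below HSP31. Over the 3 arrays HSP31 and HSP42 had the most similar values (a Euclidean distance of 0.61), followed by HSP26 and HSP42 (0.80) and BTN2 and HSP30 (0.83), and HSP12 was at least 2.66 from every other gene of the set. Over replicate 1 alone HSP31 and HSP42 were again the closest (0.43) and HSP12 was at least 2.63 from the others, whereas BTN2 and HSP30 were 0.82 apart, with 6 pairs closer.

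**Figure D2:**
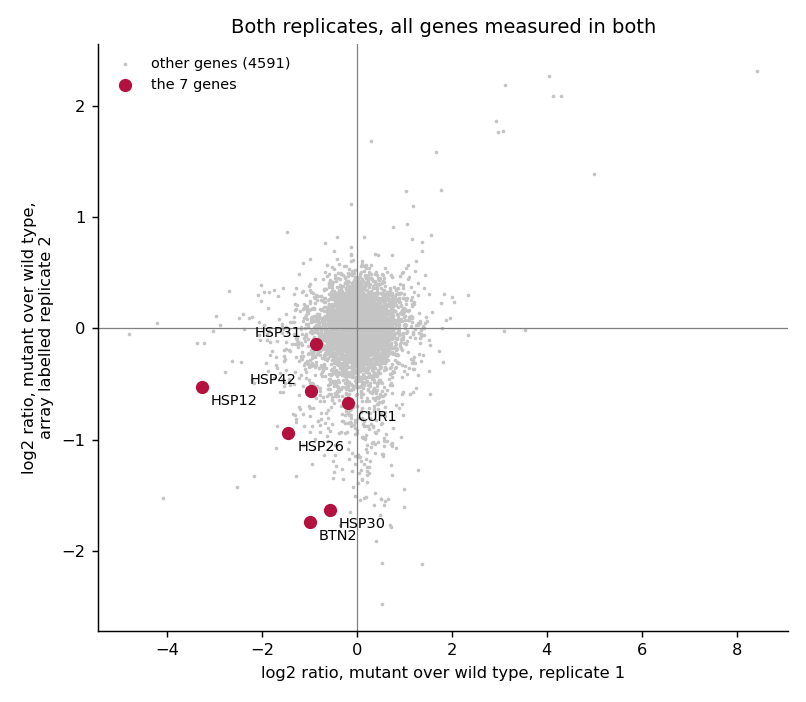
Log2 ratio in replicate 1 (horizontal axis, mean over both dye orientations) and on the array labelled replicate 2 (vertical axis), 1 point per gene, for the 4598 genes measured in both. The 7 genes, in red, all lie below and to the left of 0, with HSP12 far to the left at −3.27 and BTN2 and HSP30 far down at −1.75 and −1.63.

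Genes with the most similar ratios were sought among the 4251 other genes measured on all 3 arrays, by Euclidean distance. GRE3, an aldose reductase gene of the general stress response, was closest to HSP42 (distance 0.07) and also to the median profile of the 7 genes (0.11), at −0.89, −1.004 and −0.59. YPC1, a ceramidase gene, and PNC1, a nicotinamidase gene, came next to that median profile, at distances of 0.15 and 0.19. The gene closest to HSP31 was DCS2 (0.12), which is induced by stress, and to HSP26 it was GAD1, glutamate decarboxylase (0.28). CUR1 was nearest to MEP2, an ammonium permease gene (0.09). HSP12, BTN2 and HSP30 had no such close match, their nearest genes being OPI3 of phospholipid synthesis at 0.49, OM45 of the mitochondrial outer membrane at 0.71 and UBP15, a ubiquitin protease gene, at 0.35. Over both arrays of replicate 1 alone OPI3 was again the nearest gene to HSP12 (0.29), and the other 6 genes had different nearest genes. With 3 arrays such a likeness is a description only. The distance to the nearest gene also depends on how many genes lie in the same range of ratios, which was not taken into account.

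Sequence relatives of the 7 genes were measured in part. YRO2 and MRH1 encode membrane proteins related to Hsp30. YRO2 was at −0.38, −0.24 and −0.39, and MRH1 at 0.09, 0.07 and 0.12, so neither had the −1.63 of HSP30 on the array labelled replicate 2. Among the relatives of HSP31, HSP33 was at −0.50 with the mutant in Cy5 and −0.39 on the array labelled replicate 2, and was blank on the swapped array. SNO4 had a value on the array labelled replicate 2 alone, 0.04, and HSP32 was blank on all 3. HSP32, HSP33 and SNO4 are close to identical in sequence, so a spot of one may bind transcripts of the others. How far BTN2 and CUR1, or HSP31 and its relatives, bind to each other's spots was not tested.

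Other genes of protein quality control and stress were read from lists of 136 distinct genes, which overlap in part. Over all genes measured in both replicates, 24.6% were below 0 in both and 48.2% were below 0 in replicate 1. The share of all genes above 0 in both was not computed. The lists, like the 7 genes, were chosen with earlier results of these data known, so their counts by sign and medians are descriptions. None of the listed genes passed the adjusted p in limma (0 higher and 0 lower). In the list of large chaperones and cochaperones 17 of 28 measured genes had both replicates below 0 and 2 had both above, and 23 were below 0 in replicate 1. The medians were −0.49 for replicate 1 against −0.22 for the array labelled replicate 2. SSA4, a stress-inducible Hsp70, was at −2.83, −1.49 and −1.33. HSP104, the disaggregase that works on Hsp26- and Hsp42-bound protein, was at −1.32, −0.46 and −0.999, and HSP78, its mitochondrial relative, at −1.95, −1.31 and −0.57. The medians of the 7 genes, −0.96 and −0.67, were further from 0 than those of the large chaperones in both replicates, a difference that was not tested.

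Partners in sorting, disaggregation and degradation had both replicates below 0 for 10 of 20 measured genes and above 0 for 2, with 14 below 0 in replicate 1, the medians being −0.22 and −0.14. Of these, SIS1, the Hsp40 that Cur1 and Btn2 are known to bind, was at −0.81, −0.48 and −0.61. APJ1, an Hsp40 of nuclear protein disaggregation, was at −0.96, −0.27 and −0.80. Both had, like BTN2, lower values with the mutant in Cy5 than on the swapped array. SSA4, HSP104 and HSP78 of the chaperone list had that order too, so it was not particular to BTN2 and these partners. Other genes of that list, SSA2 among them, had the reverse order. This list shares HSP104, SIS1, APJ1 and further genes with the chaperone list.

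General stress genes regarded as targets of Msn2 and Msn4 had both replicates below 0 for 28 of 32 measured genes and above 0 for 0, with 30 below 0 in replicate 1, the medians being −0.90 and −0.51. OM45 was at −1.45, −1.12 and −1.33. XBP1, a stress-induced repressor gene, was at −1.50, −2.92 and −0.46, and GAC1, a regulatory subunit gene of protein phosphatase 1, at −1.76, −1.60 and −0.88. OM45 and XBP1 lie on chromosome IX, whose median was −0.67 in replicate 1, whereas none of the 7 genes lies there. In 23 of the 32 genes the ratio was lower in replicate 1, against 2175 of the 4598 genes measured in both replicates. The arrays of replicate 1 were also the wider ones, and the part of that width in this count was not tested.

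**Figure D3:**
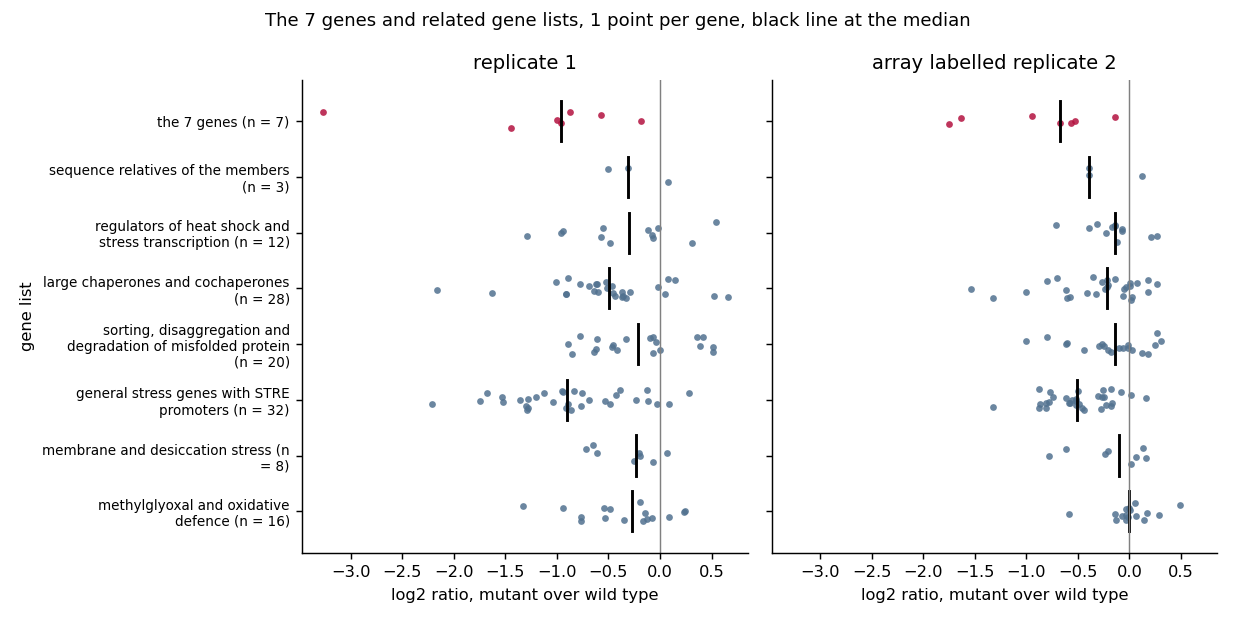
Log2 ratio of mutant over wild type (horizontal axis) of the 7 genes and of the genes of each list measured in both replicates (rows), in replicate 1 (left) and on the array labelled replicate 2 (right), with 1 point per gene and a black line at the median. The medians of the 7 genes, −0.96 and −0.67, and of the general stress genes, −0.90 and −0.51, lie furthest to the left.

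Regulators of these genes were measured in 12 of 15 cases, with both replicates below 0 for 9 and above 0 for 1, and 10 below 0 in replicate 1. HSF1 was at −0.58 and −0.38 in both orientations of replicate 1 but blank on the array labelled replicate 2, and MSN2 was at 0.13, −0.36 and 0.21. These 2 genes are named for their role after their values were seen. MSN4, the relative of MSN2, was at −1.01, −0.90 and −0.31, and GIS1, a transcription factor of entry into stationary phase, was at −1.29, −0.58 and −0.72. BCY1, the inhibitory subunit of protein kinase A, was at −1.07, −1.52 and −0.14 and lies on chromosome IX. The ratios report transcripts, while Hsf1, Msn2 and Msn4 are known to be controlled largely as proteins.

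For the membrane, 4 of 8 measured genes of a list of plasma membrane and desiccation genes had both replicates below 0 and 7 were below 0 in replicate 1, with medians of −0.23 and −0.10. NCE102 and LSP1, which belong to eisosomes of the plasma membrane, were at −0.21, −1.23 and −0.61 and at −0.61, −0.68 and −0.21. STF2, a hydrophilin gene, was at −0.28, −0.22 and −0.78. PMA1, the pump that Hsp30 acts on, was at −0.63, 0.49 and −0.24 and is named after its values were seen. Its sign turned with the dye.

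In the list of methylglyoxal and oxidative defence, the functions of Hsp31, 8 of 16 genes had both replicates below 0, 2 had both above and 13 were below 0 in replicate 1, the medians being −0.27 and −0.01. GRE3, which also reduces methylglyoxal, had the lowest mean of the list, −0.77 ± 0.25 (SD, n = 2). AHP1, a peroxiredoxin gene, was at −0.14, −1.40 and −0.07, and SOD1, superoxide dismutase, at −0.34, −1.19 and −0.01. Both were, like HSP31, lowest on the array with the mutant in Cy3 and near 0 on the array labelled replicate 2.

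The chromosomal surroundings of the 7 genes were examined in the RefSeq gene order of assembly R64, over up to 10 measured genes on each side. The medians of these windows ran from −0.09 to 0.29 for replicate 1 and from −0.10 to 0.13 for the array labelled replicate 2. For HSP12, none of its 20 surrounding genes was lower in replicate 1, the lowest being MDJ1 at −0.92. On the array labelled replicate 2 no surrounding gene was lower than HSP30, BTN2, HSP42 or CUR1, and the lowest ratios around HSP30 and BTN2 were −0.59 and −0.83. On that array 6 of the 16 genes around HSP31, 2 of 20 around HSP12 and 2 of 20 around HSP26 were lower than the member. In replicate 1 none was lower than HSP42 either, 6 of 20 were lower than CUR1, and 1 each was lower than HSP30, HSP26, HSP31 and BTN2. BTN2 lies on chromosome VII, where 5.81% of the genes were at least 2-fold lower on the array labelled replicate 2, above the 1.98% over all genes. HSP12 lies on chromosome VI with 6.98% of that kind, HSP26 on chromosome II with 3.58% and HSP30 on chromosome III with 2.70%. Chromosome IV, with HSP42 and HSP31, had 0.361%, and chromosome XVI, with CUR1, had 1.30%. The chromosome medians of all 7 genes were between −0.04 and 0.11 in both replicates. The part of position in these ratios was not tested.

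Direct neighbours gave values for fewer genes. VPS62, to the left of BTN2, was at −1.27, 0.02 and −0.09, so it shared the dye gap of BTN2 in replicate 1 and not its low value on the third array. The reading frame YFL015C, to the left of HSP12, was at −0.18, −0.91 and −0.70, and IES1, to its right, was at −0.70, 0.50 and −0.15. TDA6, to the left of CUR1, was at −0.06, 0.87 and −0.58, close to the −0.67 of CUR1 on the array labelled replicate 2. KRE28 and FIT1, on either side of HSP31, were at −0.22, −0.40 and 0.03 and at −0.10, −0.58 and 0.05. SUP35, to the right of HSP42, was at 0.25, 1.52 and −0.06, and YBR071W, to the left of HSP26, at 0.63, −0.14 and −0.23. YCR022C, to the right of HSP30, was at 0.14, −0.35 and 0.39.

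**Figure D4:**
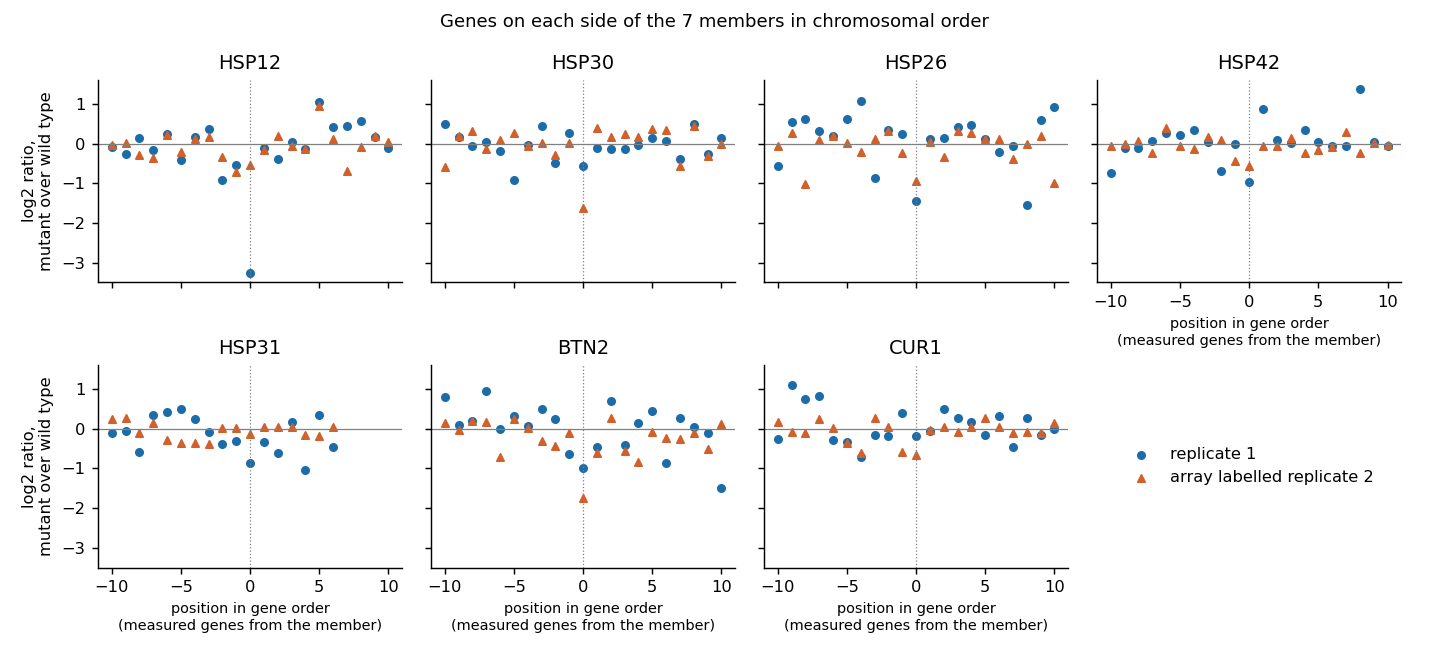
Log2 ratio of mutant over wild type (vertical axis) of each of the 7 genes, at 0 on the horizontal axis, and of up to 10 measured genes on each side in chromosomal order, in replicate 1 (blue circles) and on the array labelled replicate 2 (orange triangles). HSP12 at −3.27 in replicate 1 and HSP30 and BTN2 at −1.63 and −1.75 on the array labelled replicate 2 lie below all their surrounding genes of the same replicate.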

How the data were processed

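Total RNA (8 µg per labelling) was converted to Cy3- or Cy5-labelled cDNA from oligo(dT), per the labels' protocols. What the authors deposited is a log2 ratio for each gene on each array. How they scanned, corrected, filtered and normalized the arrays, and the genome build, are not stated in the labels used. No intensity was used, and how far a signal stood above background is unknown. The log2 scale was read from the values: 100% of the deposited ratios are whole multiples of 0.001 on the linear scale, within a tolerance of 6e-05 in log2, against 11.6 to 13.2% with the sign turned. Deposited medians were 0.0229, 0.0072 and 0.0468. The numerator is not stated. Since the swapped array correlated with its partner at 0.508 over 4258 genes, it was not turned, and mutant over wild type was taken for all arrays because VHS3 and HAL3 are below 0 that way in replicate 1. URA3, the mutant's marker, is below 0 that way too and goes against this reading, so the direction is not settled by the altered genes, and with the sign turned every ratio here would change sign. The third array, which correlated with the first at 0.178, has VHS3 and HAL3 near 0.

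Arrays were centred on their medians and the dye-swap pair, made from 1 biological replicate, was averaged, or its single value used. Blanks were left out. limma 3.58.1 in R 4.3.3 (lmFit, eBayes, n = 2, 1 residual degree of freedom) tested the mean log2 ratio of 4598 genes against 0, two-sided, with Benjamini-Hochberg adjustment, after the procedure was tested on simulated data. The labels call the replicates biological and say nothing of separate cultures, so p-values measure only the spread between these 2, which may be partly technical. Names and gene order came from RefSeq (R64), which matched 5638 of 6212 identifiers by locus tag and 145 of 145 list entries. The 7 genes and the gene lists were chosen with earlier results of these data known.

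Genes named were the 7 members, VHS3, HAL3 and URA3, all sequence relatives, per list those at least 2-fold different in both replicates and up to 3 with the largest mean and 1 sign, the nearest gene to each member and the 3 nearest to their median, and direct neighbours. Alternatives changed the dye-swap handling, centring, scale, missing values, variance prior and replicates. Counts, order and likeness in replicate 1 alone were added after seeing the data.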

Additional observations from a re-analysis of the deposited data

How the results depend on the processing

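All 7 genes stayed below 0 in both replicates, or in the 1 left, under each alternative run. All 56 recomputed means of single genes were below 0. These signs could not have come out otherwise, since each of the 7 genes was below 0 on every array, before and after centring. The alternatives only average, leave out, rescale or do not centre the same values, so no support is drawn from the signs. With 2 replicates the SD is too wide a yardstick for leaving 1 out, so the values are given instead. BTN2 was at −1.92 with arrays scaled to the same median absolute deviation. That scaling put the median of the 7 genes at −1.37 in place of −1.10, and called 4 genes over the whole table in limma in place of 0, none of them among the 7. Without replicate 1 that median was −0.67, and without replicate 2 it was −0.96. The mean of HSP12 was −0.52 without replicate 1 and −3.27 without replicate 2, that of HSP31 −0.14 and −0.87, that of HSP30 −1.63 and −0.57, that of CUR1 −0.67 and −0.18, that of BTN2 −1.75 and −0.996, that of HSP26 −0.94 and −1.45, and that of HSP42 −0.57 and −0.96. With the swapped array alone for replicate 1, 13 genes passed the adjusted p, among them HSP12, and with the 3 arrays fitted as if independent 16 passed, 0 of the 7 among them. The other alternatives that allow a test called 0 genes. Counts of genes at least 2-fold lower were 91 without replicate 1 and 175 without replicate 2, as only 1 replicate then has to pass, in place of 6 in both, and of those at least 2-fold higher 15 and 126 in place of 13. No test was run without either replicate, since no residual degrees of freedom are left. No separate paired analysis was run, because both strains share each array and the ratio tested is already paired.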

Other observations

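SSA3, the stationary-phase Hsp70 gene, had opposite signs in the replicates, at 1.42 and −0.10 for both orientations of replicate 1 but −1.54 for the array labelled replicate 2, where HSP30 and BTN2 were also low. Among the general stress genes YGP1, a secreted glycoprotein gene, was at 0.32, −0.14 and −0.74, and NQM1, a transaldolase gene, was at 0.25, 0.31 and −0.58. GLK1, glucokinase, went the other way at −1.02, −1.39 and 0.16. These 4 genes were picked out after their values were seen.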
